A study of Mus musculus with 10 samples.

Results

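The 9 genes described here, *Wnt3*, *Wnt5a*, *Lef1*, *Tcf7*, *Tcf7l1*, *Axin2*, *Sp5*, *Nkd1* and *Dkk1*, are ligands, DNA-binding factors, targets and inhibitors of WNT signaling. They were chosen by name for their place in the pathway, and all 9 were found among the 27998 genes of one table of single-cell RNA counts and among the 32285 genes of the other. The first table held 8 libraries of the mouse embryonic stem cell (ESC) line E14Tg2a that follow the differentiation to primordial germ cell-like cells (PGCLC), and the second held 2 libraries of d4 embryoid bodies (EB) of the mouse ESC line R1. There was 1 library per group and no replicate, so a difference of stage or genotype cannot be told apart from one of libraries, and the ratios below carry no test.

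2i ESC were kept in serum-free medium with LIF, the MEK inhibitor PD0325901 at 0.4 µM and the GSK3 inhibitor CHIR99021 at 3 µM, while S+L ESC were kept in serum and LIF without either inhibitor. d1, d2 and d3 EpiLC (epiblast-like cells) were made from 2i ESC in Activin A at 20 ng/ml and bFGF at 12 ng/ml with serum replacement. EpiSC (epiblast stem cells) were made from 2i ESC by repeated passaging in the same concentrations of Activin A and bFGF. For d2 and d4 EB, d2 EpiLC were grown as floating aggregates with BMP4 at 0.5 µg/ml, SCF, LIF and EGF. The R1 EB were from wild-type cells (WT) and from dCD cells, 1 clonal line in which MLL3 and MLL4, the methyltransferases that place H3K4me1 at enhancers, are catalytically dead.

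In the canonical branch of the pathway, a WNT ligand bound by Frizzled and LRP receptors stops GSK3 and the AXIN scaffold from marking β-catenin for destruction, and β-catenin then joins TCF/LEF factors on DNA. Inhibition of GSK3, as in 2i, stabilizes β-catenin without a ligand. Several targets feed back on the pathway, and in the embryo WNT3 is needed for the primitive streak and for the epiblast to give rise to germ cells.

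The annotation of GRCm38 places *Wnt3* on chromosome 11 (103774150 to 103817957, plus strand), *Wnt5a* on chromosome 14 (28504750 to 28527448, plus strand) and *Lef1* on chromosome 3 (131110471 to 131224356, plus strand). *Tcf7* lies on chromosome 11 (52252371 to 52283014, minus strand) and *Tcf7l1* on chromosome 6 (72626378 to 72789254, minus strand). *Axin2* lies on chromosome 11 (108920349 to 108950783, plus strand), *Sp5* on chromosome 2 (70474923 to 70477729, plus strand), *Nkd1* on chromosome 8 (88521354 to 88594884, plus strand) and *Dkk1* on chromosome 19 (30545863 to 30549665, minus strand).

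The promoters of 8 of the 9 genes were held in the RefSeq table of GRCm38.p6, with 12 entries in all, of which *Lef1* had 4 and *Tcf7* had 2. The 250 bases before each start were searched on both strands for CTTTGAT and CTTTGAA, strings that TCF/LEF factors are known to bind, which do not overlap each other at 1 place. One of them was found in 2457 of 32851 promoters (7.48%) and in 2 of the 12 entries, those of *Sp5* and *Dkk1*. The match of *Sp5* began 104 bases before the RefSeq start and that of *Dkk1* 117 bases before it. The annotation above starts *Dkk1* further upstream than RefSeq, so this match lies inside the gene as placed there. Both sequences are shown to place these strings, in capitals, and that of *Axin2* is shown as a target without either string in this window. Letters do not tell whether a factor was bound, and the search says nothing of sites elsewhere. They run 5′ to 3′ on the strand of the gene, at chr2:70474673-70474922 (plus), chr19:30549497-30549746 (minus) and chr11:108920099-108920348 (plus).
Sp5: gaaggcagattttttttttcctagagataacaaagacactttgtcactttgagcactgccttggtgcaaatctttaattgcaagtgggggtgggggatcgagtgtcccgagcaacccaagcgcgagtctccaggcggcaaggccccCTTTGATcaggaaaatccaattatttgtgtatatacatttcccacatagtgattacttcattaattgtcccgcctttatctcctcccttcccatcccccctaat
Dkk1: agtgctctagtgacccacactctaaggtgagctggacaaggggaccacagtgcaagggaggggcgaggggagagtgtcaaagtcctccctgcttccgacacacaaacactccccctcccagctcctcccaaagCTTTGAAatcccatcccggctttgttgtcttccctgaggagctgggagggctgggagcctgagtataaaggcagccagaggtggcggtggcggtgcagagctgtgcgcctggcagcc
Axin2: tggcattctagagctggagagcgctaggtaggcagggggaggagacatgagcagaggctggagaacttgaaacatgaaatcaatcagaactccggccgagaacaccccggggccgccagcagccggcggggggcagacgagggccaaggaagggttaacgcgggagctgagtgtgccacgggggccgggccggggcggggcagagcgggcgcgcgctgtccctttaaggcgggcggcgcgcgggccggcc

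The E14Tg2a libraries held 227 to 537 cells with a median of 21658 to 36750 UMIs (unique molecular identifiers, 1 for each captured RNA molecule) per cell, and the R1 libraries 1416 WT cells and 1699 dCD cells with 13187.5 and 11751. Levels are given as CPM, a gene's UMIs in all cells of the group per 1000000 UMIs counted there, with exact 95% Poisson intervals in parentheses. Ratios have exact conditional 95% intervals, and all intervals cover counting error only. A gene was counted as higher or lower where its CPM differed at least 2-fold with at least 20 UMIs over both groups, and the words rose and fell are used in that sense. Levels are compared between groups and not between genes. Where one of the groups had 0 UMIs, a ratio is given as a bound with 3 counts in place of the 0. The summed CPM of 7 naive pluripotency markers was 1589 in 2i ESC and 1508 in S+L ESC, 334 in d1 EpiLC, from 48.8 to 92.3 in d2 and d3 EpiLC and EpiSC, and 340 and 421 in d2 and d4 EB. This sum sets the ESC apart from the later stages but does not tell all of these from each other. In these sums over cells, fewer cells with a gene and less RNA of it per cell cannot be told apart, so shares of cells are given where they matter. Of all cell barcodes, 8 occurred in more than 1 E14Tg2a library and 0 in both R1 libraries.

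**Figure D1:**
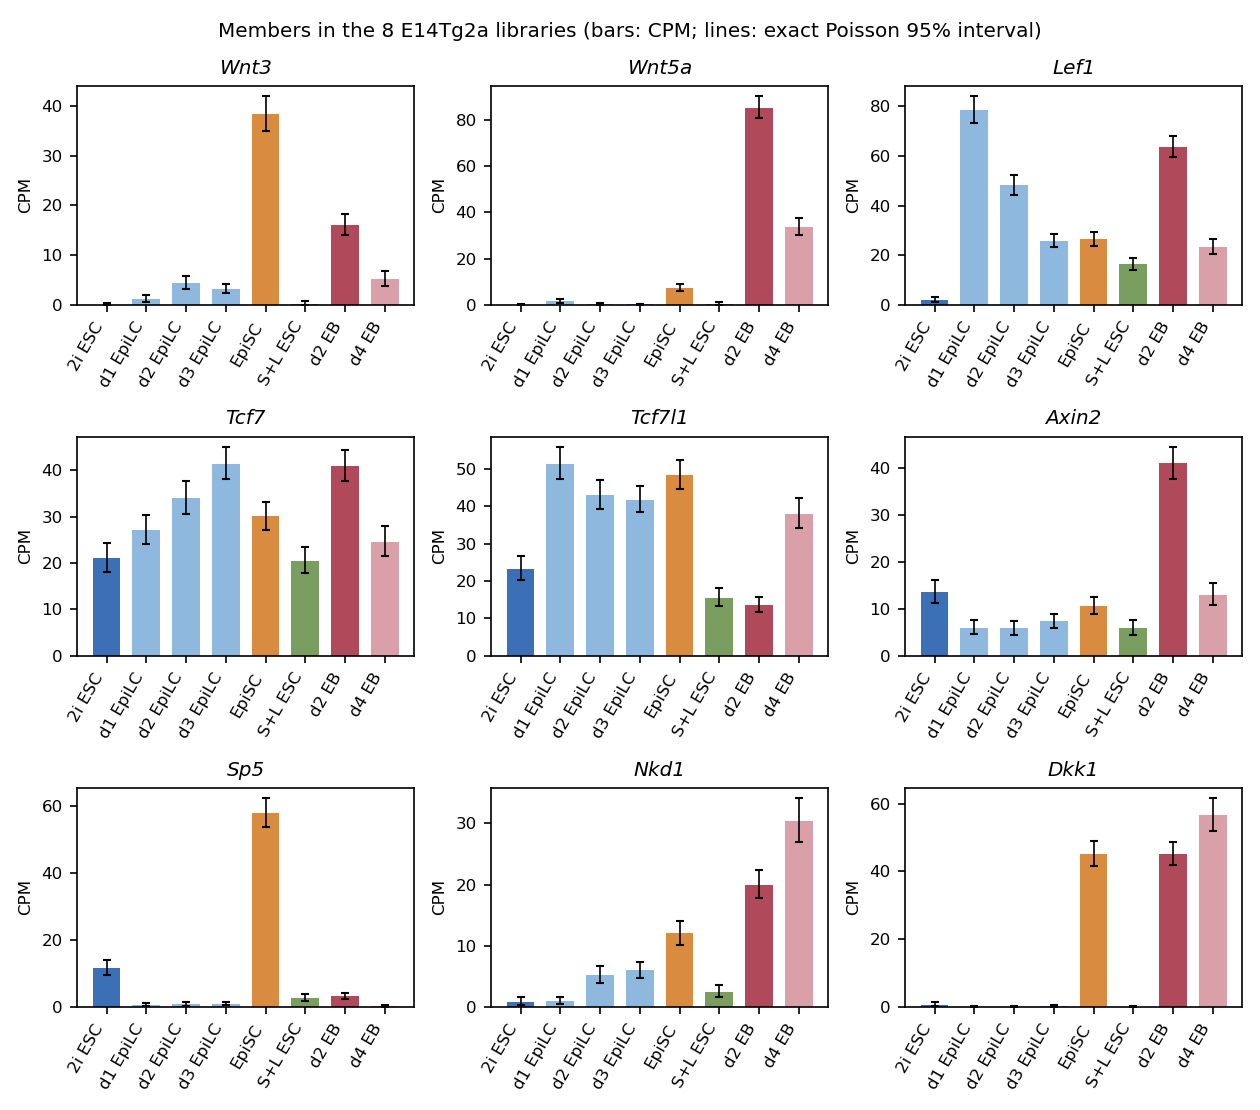
Level of each gene in CPM (vertical axes, linear and starting at 0) in the 8 E14Tg2a libraries (horizontal axes), with exact 95% Poisson intervals that cover counting error only. *Axin2* and *Sp5* in 2i ESC stood above the EpiLC, though *Axin2* by less than 2-fold over d3 EpiLC. *Wnt5a* and *Dkk1* were near 0 in all but EpiSC and EB.

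The ligands were scarce before the EB and EpiSC stages. *Wnt3*, which signals mostly through β-catenin, had 0 UMIs in 2i ESC (3 counts would be 0.343 CPM) and was at 0.198 CPM (0.024 to 0.715) in S+L ESC. It stood at 1.09 (0.564 to 1.91), 4.39 (3.25 to 5.81) and 3.20 CPM (2.33 to 4.28) in d1, d2 and d3 EpiLC. Its highest level was in EpiSC with 38.4 CPM (35.1 to 42.0), followed by d2 EB with 16.1 (14.1 to 18.3) and d4 EB with 5.10 (3.77 to 6.75). In this order the intervals of 4 of 7 neighboring pairs overlapped, all of them among the 6 lower libraries.

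*Wnt5a*, a ligand known mostly for signaling without β-catenin, had another order. It had 0 UMIs in 2i ESC and was at 0.396 CPM (0.108 to 1.01) in S+L ESC, 1.64 (0.970 to 2.59) in d1, 0.179 (0.0217 to 0.648) in d2 and 0.142 (0.0172 to 0.513) in d3 EpiLC. EpiSC had 7.21 CPM (5.81 to 8.84), d4 EB 33.7 (30.2 to 37.6) and d2 EB 85.3 (80.6 to 90.1). Thus *Wnt5a* was highest in EB and *Wnt3* in EpiSC, and in both orders the top 3 libraries were these.

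The 3 TCF/LEF factors differed from each other. *Lef1*, mostly an activator with β-catenin, was lowest in 2i ESC with 1.94 CPM (1.13 to 3.11), and S+L ESC had 16.3 (13.9 to 19.0). It was highest in d1 EpiLC with 78.6 CPM (73.4 to 84.0), then 63.7 (59.7 to 67.9) in d2 EB and 48.2 (44.2 to 52.5) in d2 EpiLC. EpiSC, d3 EpiLC and d4 EB had 26.4 (23.7 to 29.4), 25.8 (23.3 to 28.6) and 23.2 CPM (20.3 to 26.5) and were the only neighbors in the order whose intervals overlapped. *Tcf7*, which can act as activator or repressor, varied least, between 20.5 CPM (17.8 to 23.5) in S+L ESC and 41.4 (38.1 to 44.9) in d3 EpiLC, and 6 of its 7 neighboring pairs overlapped. *Tcf7l1*, known in ESC as a repressor of pluripotency genes, ranged from 13.7 CPM (11.8 to 15.7) in d2 EB and 15.5 (13.2 to 18.2) in S+L ESC to 51.3 (47.1 to 55.7) in d1 EpiLC.

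Among the targets, *Axin2* encodes a scaffold of the complex that destroys β-catenin, and *Sp5* a zinc finger factor. *Axin2* was highest in d2 EB with 40.9 CPM (37.7 to 44.3), and the next were 2i ESC with 13.5 (11.2 to 16.1), d4 EB with 13.0 (10.8 to 15.5) and EpiSC with 10.6 (8.87 to 12.5), which did not differ beyond their intervals. The EpiLC and S+L ESC lay between 5.83 CPM in d2 EpiLC and 7.31 CPM (5.97 to 8.87) in d3 EpiLC. *Sp5* reached 58.1 CPM (54.0 to 62.4) in EpiSC, and 2i ESC came next with 11.6 (9.50 to 14.1). All other libraries were lower, from 3.21 CPM (2.36 to 4.27) in d2 EB and 2.57 (1.68 to 3.77) in S+L ESC to 0.455 (0.148 to 1.06) in d1 EpiLC and 0.104 (0.00264 to 0.580) in d4 EB.

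The inhibitors *Nkd1*, whose protein binds Dishevelled inside the cell, and *Dkk1*, whose protein is secreted and blocks LRP receptors, were both highest in d4 EB. *Nkd1* was at 30.4 CPM (27.0 to 34.1) there, 20.0 (17.8 to 22.4) in d2 EB and 12.0 (10.2 to 14) in EpiSC, against 0.799 (0.321 to 1.65) in 2i ESC. *Dkk1* was at 56.5 CPM (51.9 to 61.5) in d4 EB and at 45.1 CPM in both EpiSC (41.5 to 49.0) and d2 EB (41.7 to 48.7). Between 0 and 5 UMIs of *Dkk1* were counted in each of the other 5 libraries, and the 5 were in 2i ESC (0.571 CPM, 0.185 to 1.33).

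The GSK3 inhibitor of 2i is absent from S+L medium, and serum takes the place of the other components, so the comparison of both ESC cultures does not isolate it. From 2i to S+L ESC, *Axin2* fell to 0.433 times its level (0.312 to 0.597), from 118 UMIs to 59, and *Sp5* to 0.221 times (0.138 to 0.343), while *Lef1* rose 8.41-fold (5.10 to 14.8) and *Nkd1* 2.97-fold (1.24 to 8.17), the latter from 7 UMIs to 24. Of the 9 genes, 2 were thus lower and 2 higher, where 3.78% of all genes with at least 20 UMIs were lower and 13.9% higher. *Tcf7* stayed within 2-fold at 0.975 times (0.796 to 1.2), as did *Tcf7l1* at 0.667 times (0.538 to 0.825). *Wnt3*, *Wnt5a* and *Dkk1* had too few UMIs to be counted.

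The inhibitor is also withdrawn on the way from 2i ESC to d1 EpiLC, together with LIF and the MEK inhibitor. *Axin2* fell to 0.445 times (0.324 to 0.607) and *Sp5* to 0.039 times (0.0124 to 0.0941), from 102 UMIs to 5. *Lef1* rose 40.5-fold (25.1 to 69.8) and *Tcf7l1* 2.20-fold (1.87 to 2.60). Again 2 of the 9 genes were lower and 2 higher, beside 9.46% and 15.5% of all genes. Only 5 of the 9 had at least 20 UMIs, and *Wnt3*, *Wnt5a*, *Nkd1* and *Dkk1* had too few to be counted. With TMM scaling *Tcf7l1* rose 1.98-fold and was no longer counted. Thus *Axin2* and *Sp5* were lower, and *Lef1* higher, in both libraries without the inhibitor that were set against 2i ESC, which served as the control of both.

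That scaling moved the median log2 ratio of all genes by more than 0.1 in 5 of the 10 comparisons, by -0.15 from 2i ESC to d1 EpiLC, -0.10 from d1 to d2 EpiLC, -0.16 from d3 EpiLC to EpiSC, -0.11 from d2 to d4 EB and 0.25 for the d4 PGCLC. Relative to these shifts, the genes kept the calls given in the text except where a change is named.

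From d1 to d2 EpiLC, *Wnt3* rose 4.03-fold (2.11 to 8.32) and *Nkd1* 5.72-fold (2.90 to 12.5), and *Wnt5a*, with 18 and 2 UMIs, fell to 0.110 times (0.0123 to 0.458). These 2 higher and 1 lower genes, of 7 with at least 20 UMIs, stood beside 14.8% and 8.72% of all genes, and counts this small say little of the 9 as a set. From d2 to d3 EpiLC, 0 of the 7 genes with at least 20 UMIs were higher and 0 lower, with 7.04% of all genes higher and 5.88% lower. *Lef1* was nearest with 0.536 times (0.468 to 0.613), after 0.614 times (0.550 to 0.684) from d1 to d2. *Tcf7* was at 1.26 (1.08 to 1.47) and 1.22 times (1.07 to 1.39) in these steps, small ratios whose intervals did not include 1.

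From d3 EpiLC to EpiSC, cultures with the same growth factors that differ in time, passaging and serum replacement, 5 of the 9 genes rose and 0 fell, beside 12.0% and 9.5% of all genes. *Sp5* rose 74.3-fold, with a lower bound of 41.3, from 11 UMIs to 741. *Wnt3* rose 12.0-fold (8.84 to 16.7). The 2 UMIs each of *Dkk1* and *Wnt5a* in d3 EpiLC make their ratios of 318 and 50.8 imprecise, with lower bounds of 87.6 and 13.7. *Nkd1* rose 2.01-fold (1.53 to 2.66), and 1.80-fold with TMM scaling, where it was no longer counted. The factors and *Axin2* stayed within 2-fold, *Lef1* at 1.02 times (0.878 to 1.19), *Tcf7l1* at 1.16 (1.03 to 1.30), *Tcf7* at 0.725 (0.636 to 0.826) and *Axin2* at 1.45 (1.11 to 1.89). The study's own set of EpiSC genes, chosen on these libraries, holds *Sp5*, *Wnt3* and *Nkd1*, and its EpiLC set holds *Lef1*, so their direction here is not independent of that choice.

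Some of these genes were not spread evenly over EpiSC, and not only those that rose. *Dkk1* was detected in 16.6% of EpiSC, where 75.1% would have had a UMI if the 576 UMIs had been spread by depth alone, and *Sp5* in 43.2% instead of 82.5%. Of the other genes that rose, *Wnt5a* was in 10.2% of cells instead of 21.5%, *Wnt3* in 59.2% instead of 69.8% and *Nkd1* in 29.2% instead of 32.7%. *Lef1*, which stayed within 2-fold, was in 44.2% instead of 57.0%. *Tcf7l1* and *Tcf7* were close to an even spread, with 76.1% against 77.2% and 60.6% against 61.4%. The 24 cells with at least 10 UMIs of *Dkk1* held 79.0% of all its UMIs in EpiSC. In d2 EpiLC, at a median of 35956 UMIs per cell against 31587 in EpiSC, 0 UMIs of *Dkk1* were found (3 counts would be 0.269 CPM).

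*T*, a streak factor and WNT target, was at 84.5 CPM (79.5 to 89.7) in EpiSC and was found in 151 of the 373 cells. In these cells *Sp5* was at 85.8 CPM (78.3 to 93.7), against 36.0 (31.8 to 40.7) in the 222 cells without *T*, a ratio of 2.38 (2.04 to 2.78). *Dkk1* was at 64.9 CPM (58.4 to 71.9) against 29.4 (25.6 to 33.7), and *Wnt5a* at 12.2 (9.49 to 15.4) against 3.24 (2.05 to 4.86). In cells with *T*, 3 of the 9 genes were thus higher past 2-fold and 0 lower, beside 2.3% and 1.2% of all genes. *Nkd1* was 1.75-fold higher (1.25 to 2.45), while *Wnt3* at 1.03 times (0.860 to 1.24) and *Lef1* at 0.937 times (0.750 to 1.17) had intervals that included 1. Cells with *T* were somewhat deeper (median 34223 against 30685 UMIs), and the same number of 3 genes was higher when all cells were thinned to 15374 UMIs.

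**Figure D2:**
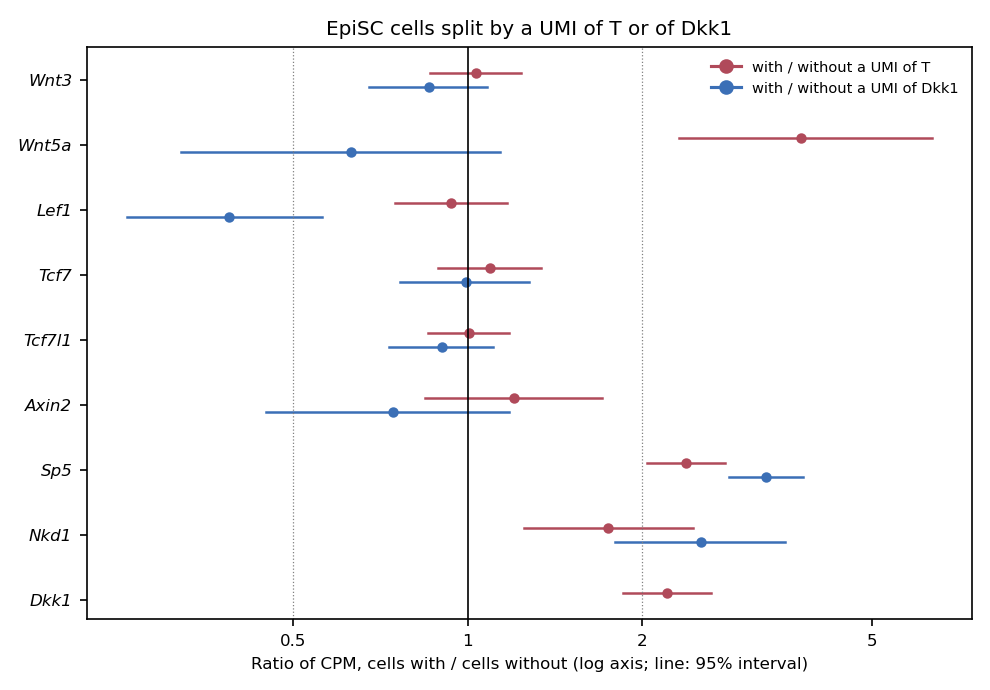
Ratio of CPM between EpiSC with and without a UMI of *T* for each gene (horizontal logarithmic axis), with exact 95% intervals that cover counting error only. *Wnt5a*, *Sp5* and *Dkk1* lie past 2-fold, and *Wnt3* and the 3 factors lie near 1.

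From d2 EpiLC to d2 EB, with BMP4 and aggregation, 6 of the 9 genes rose and 1 fell, beside 18.0% and 13.2% of all genes. *Axin2* rose 7.02-fold (5.43 to 9.21), *Sp5* 3.98-fold (1.93 to 9.23), *Nkd1* 3.85-fold (2.89 to 5.19) and *Wnt3* 3.67-fold (2.69 to 5.10). *Wnt5a* went from 2 UMIs to 1249, a ratio of 476 with a lower bound of 131, and *Dkk1* from 0 to 661, at least 168-fold higher when 3 counts are taken for 0. *Tcf7l1* fell to 0.317 times (0.268 to 0.375). *Lef1* and *Tcf7* were at 1.32 (1.19 to 1.47) and 1.2 times (1.06 to 1.37). The sum of the streak markers was also higher in d2 EB, with a summed CPM of 328 against 42.5 over 7 genes, and of 116 against 3.68 over the 3 of them outside the pathway list. Of these 3, *Mesp1* (88.1 against 0.269 CPM) and *Evx1* (27.4 against 0) were higher, and *Eomes* was lower (0.410 against 3.41). The part of the streak markers in the result was not tested.

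From d2 to d4 EB the direction was mostly opposite: 5 of the 9 fell and 1 rose, beside 5.75% and 13.7% of all genes. *Axin2* fell to 0.318 times (0.260 to 0.387), *Wnt3* to 0.317 (0.228 to 0.432), *Lef1* to 0.365 (0.314 to 0.422) and *Wnt5a* to 0.396 (0.349 to 0.447). *Sp5* fell from 47 UMIs to 1. *Tcf7l1* rose 2.78-fold (2.34 to 3.32). The inhibitors did not fall, with *Dkk1* at 1.25 times (1.12 to 1.41) and *Nkd1* at 1.52 times (1.29 to 1.79). In cells thinned to 15374 UMIs the log2 ratio of *Dkk1* was 1.04, and 0.33 in all UMIs.

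The authors list 91 PGCLC of d2 EB and 44 of d4 EB, which they found by clustering on all genes, so the levels in these cells describe a choice and are no test. The summed CPM of 7 PGC markers was 484 in the listed d2 PGCLC against 57.7 in the other 446 cells, and 445 against 66.8 in the other 324 cells of d4 EB. At d2, 4 of the 9 genes were lower and 1 higher in PGCLC, beside 13.7% and 6.86% of all genes. *Dkk1* was at 4.09 CPM (2.11 to 7.15) against 55.4 (51.2 to 59.8) and *Nkd1* at 3.75 (1.87 to 6.71) against 24.1 (21.3 to 27.0), so both inhibitors were low. *Lef1* was at 33.8 CPM (27.4 to 41.1) against 71.2 (66.4 to 76.2) and *Wnt5a* at 46.7 (39.2 to 55.2) against 94.9 (89.4 to 101), a ratio of 0.492 that became 0.513 with TMM scaling, short of 2-fold. *Sp5* was the higher one, at 6.48 CPM (3.90 to 10.1) against 2.39 (1.59 to 3.45).

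*Axin2* and *Wnt3* did not differ in this way at d2. *Axin2* was at 39.2 CPM (32.4 to 47.1) in the d2 PGCLC and 41.3 (37.7 to 45.2) in the other cells, a ratio of 0.949 (0.768 to 1.17). *Wnt3* was at 15.0 (10.9 to 20.1) and 16.4 CPM (14.2 to 18.9), a ratio of 0.915 (0.644 to 1.28). *Tcf7* was at 0.670 times (0.527 to 0.843) and *Tcf7l1* at 1.23 times (0.865 to 1.71). *T* was higher in the d2 PGCLC with 127 CPM (114 to 140) against 47.8 (43.9 to 51.9).

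At d4, 5 of the 9 genes were lower in PGCLC and 0 higher, of 8 with at least 20 UMIs, beside 33.6% and 8.8% of all genes. *Dkk1* and *Wnt5a* had 1 UMI each in the 44 cells, against 542 and 323 in the other cells, ratios of 0.015 (0.000378 to 0.0837) and 0.0251 (0.000633 to 0.141). *Nkd1* was at 3.79 CPM (1.03 to 9.71) against 33.7 (29.9 to 37.8). *Axin2* at 0.481 times (0.189 to 1.02) and *Wnt3* at 0.345 times (0.0406 to 1.32) were counted as lower, but rest on 7 and 2 UMIs and have intervals that include 1. With TMM scaling *Axin2* was at 0.573 times and was not counted. *Lef1*, *Tcf7* and *Tcf7l1* were at 0.712 (0.414 to 1.15), 0.629 (0.360 to 1.03) and 0.648 times (0.420 to 0.959), and *Sp5* had 0 UMIs in PGCLC and 1 in the other cells. The other cells had higher marker sums of 2 further cell types, with a summed CPM of 492 against 23.7 for 7 extraembryonic mesoderm markers at d4 and of 1011 against 126 for 8 extraembryonic ectoderm markers at d2. *Hand1* alone gave 942 of the 1011 CPM and 86.3 of the 126. *Esx1* (0.341 CPM in PGCLC against 10.1), *Rhox6* (8.52 against 18.2) and *Rhox9* (13.0 against 24.4) were also lower in PGCLC. *Tfap2a* and *Plet1* differed little, *Ascl2* was higher in PGCLC (10.2 against 7.60) and *Elf5* had 0 UMIs. The part of these cell types in the ratios was not tested.

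**Figure D3:**
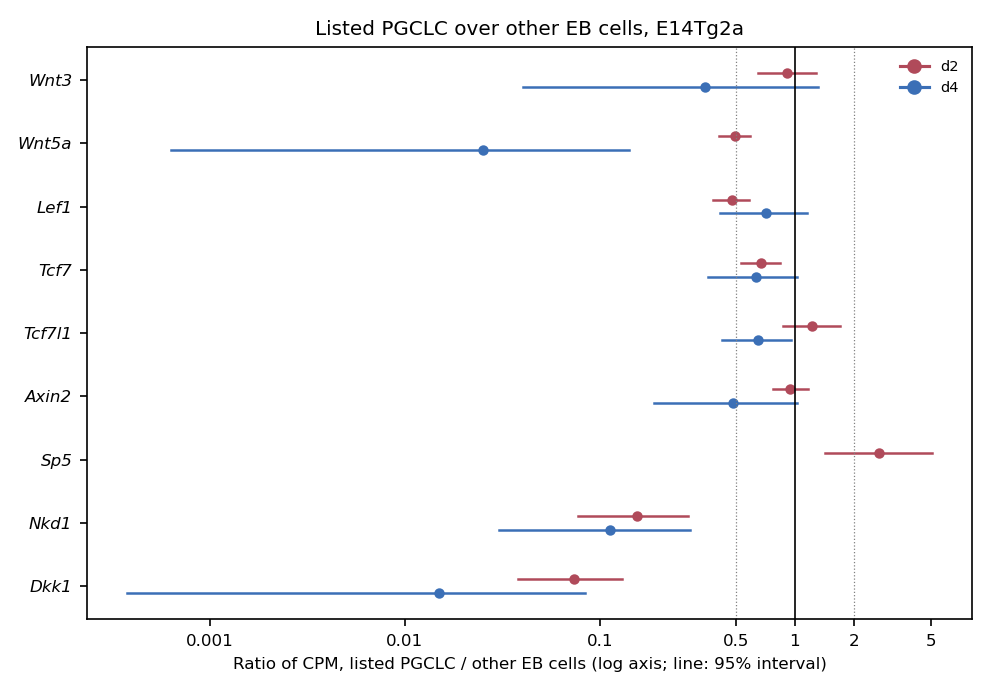
Ratio of CPM of the listed PGCLC to the other EB cells of the same library at d2 and d4 (horizontal logarithmic axis), with exact 95% intervals that cover counting error only. *Dkk1*, *Nkd1* and *Wnt5a* lie below 0.5 on both days, *Wnt5a* only just at d2 (0.492), and *Axin2* and *Wnt3* lie near 1 at d2 only.

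To see which other cells held these RNAs, the cells of d2 EB and of d4 EB were clustered by k-means without the 9 genes and the pathway genes. In d2 EB, cluster 1 (381 cells, extraembryonic mesoderm-like, led by *Pitx1*, *Hoxc9*, *Hoxc8*, *Cyp26a1* and *Hoxa9*) made up 70.9% of the cells. It held 92.8% of the *Nkd1* UMIs, 87.0% of those of *Wnt5a* and 85.6% of those of *Lef1*, with 64.1% of all UMIs. Cluster 3 (60 cells, extraembryonic ectoderm-like, led by *3830417A13Rik*, *Tinagl1*, *Igfbp2*, *Esx1* and *Vgll3*) was 11.2% of the cells and held 76.2% of the *Dkk1* UMIs, at 218 CPM. *Dkk1* was at 15.4 CPM in cluster 1 and 4.07 CPM in cluster 2 (96 cells, PGC-like, with 85 of the 91 listed PGCLC). *Wnt5a* was at 116 CPM in cluster 1, 45.1 in cluster 2 and 12.6 in cluster 3. Thus *Dkk1* and *Wnt5a* were highest in different clusters of d2 EB, and *Axin2* was at 46.4, 39.3 and 20.4 CPM in clusters 1 to 3.

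In d4 EB, the extraembryonic mesoderm-like cluster 1 (253 cells, led by *Ptn*, *Pitx1*, *Gal*, *Col3a1* and *Igfbp7*) was 68.8% of the cells and held 94.4% of the *Wnt5a* UMIs, 81.8% of those of *Nkd1* and 75.3% of those of *Dkk1*. *Dkk1* was there at 76.7 CPM, and at 66.2 CPM in the extraembryonic ectoderm-like cluster 3 (39 cells, led by *Rhox6*, *Rhox9*, *Krt7*, *Gm9112* and *Cryab*). The endothelium-like cluster 4 (27 cells, led by *Cldn5*, *Ctla2a*, *Emcn*, *Sox18* and *Rasgrp3*) had 6.66 CPM of *Dkk1* and 3.33 CPM of *Wnt5a*. Cluster 2, which passed the marker rule as naive pluripotency-like with 4 of 6 markers but is left unnamed because *Hba-a1*, *Hba-x* and other globin genes led it, with *Dppa5a*, held all 44 listed PGCLC among its 49 cells and had 1.68 CPM of each. Most *Dkk1* UMIs thus came from the ectoderm-like cells at d2 and from the mesoderm-like cells at d4.

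**Figure D4:**
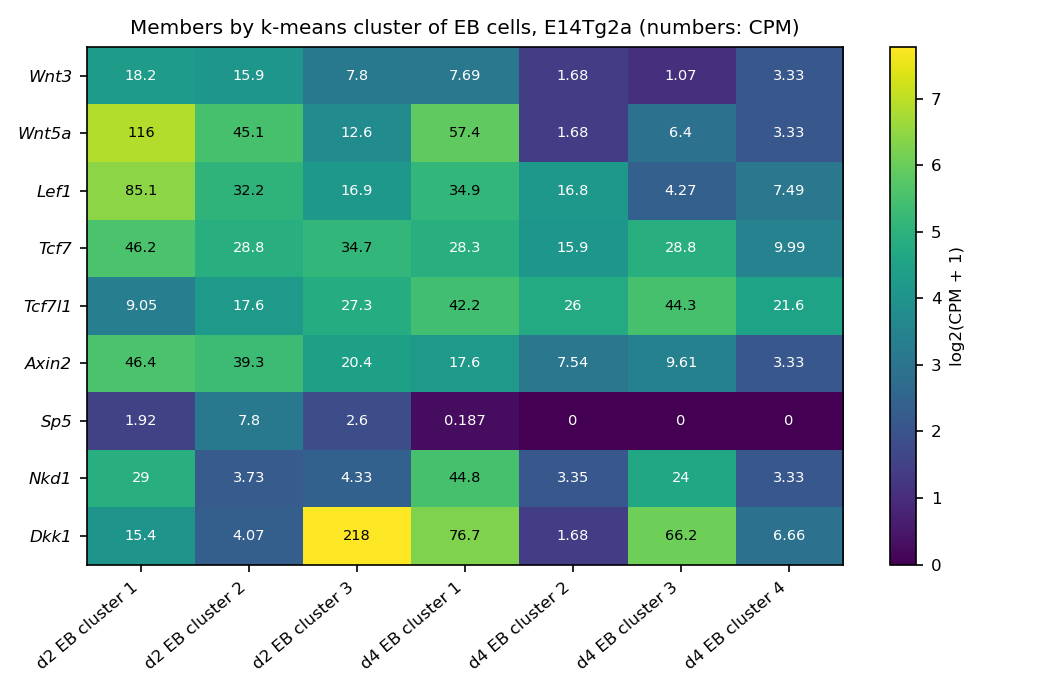
Level of each gene (rows) in the k-means clusters of d2 and d4 EB (columns), printed in CPM and shaded on a logarithmic scale. *Dkk1* was highest in d2 cluster 3, and *Wnt5a*, *Nkd1* and *Lef1* in cluster 1 of both days.

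From R1 WT to dCD d4 EB, 3 of the 9 genes were lower and 0 higher, beside 6.83% and 12.4% of all genes. *Lef1* was at 121 CPM (117 to 126) in WT and 33.5 (31.1 to 35.9) in dCD, a fall to 0.276 times (0.254 to 0.299). *Nkd1* was at 16.6 (14.9 to 18.4) and 4.06 CPM (3.28 to 4.98), a fall to 0.245 times (0.193 to 0.309). *Sp5* was at 4.66 (3.78 to 5.69) and 2.23 CPM (1.66 to 2.93), a fall to 0.478 times (0.333 to 0.678). Without cluster 8, one of 2 clusters with PGC markers described further on, *Sp5* was at 0.565 times, and without clusters 7 and 8 at 0.532 times, so its call was lost. *Axin2* and *Wnt5a* were counted as lower without clusters 7 and 8, at 0.484 and 0.491 times. *Axin2*, at 30.8 (28.5 to 33.3) and 15.5 CPM (13.9 to 17.2), came to 0.503 times (0.440 to 0.573), and to 0.493 times with TMM scaling, where it was counted as lower. *Tcf7l1* was in the other direction, at 46.4 (43.5 to 49.5) and 87.3 CPM (83.6 to 91.3), 1.88 times (1.74 to 2.03). *Wnt5a* was at 0.595 times (0.546 to 0.649), *Dkk1* at 0.842 (0.796 to 0.890), *Wnt3* at 0.861 (0.726 to 1.02) and *Tcf7* at 0.962 (0.857 to 1.08).

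The 2 R1 libraries also differed in their cells. The summed CPM of the extraembryonic mesoderm markers was 771 in WT and 207 in dCD, and that of the naive markers 529 and 764. Clustered together without the 9 genes and the pathway genes, the cells formed 10 clusters, and only 2 held at least 50 cells of each genotype. Within cluster 1 (553 WT and 117 dCD cells, led by *Ctla2a*, *Cdh5*, *Col3a1*, *Prr9* and *Hapln1*), *Lef1* was at 172 and 124 CPM, 0.721 times (0.614 to 0.843). *Wnt3* at 0.415 times (0.174 to 0.852) and *Nkd1* at 0.458 times (0.261 to 0.754) were lower, and *Sp5*, with 42 UMIs in WT and 0 in dCD, was at least 2.84-fold lower by the bound at 3 counts, and 2.21-fold lower at the near end of its conditional interval. These 3 lower and 0 higher genes stood beside 5.62% and 5.33% of all genes. *Dkk1* was at 233 CPM in WT and 387 in dCD, 1.67 times (1.51 to 1.83).

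Within cluster 6 (150 WT and 116 dCD cells, with *Vgll3*, *Ccl2* and *Cryab* among its leading genes), *Axin2* was lower at 0.408 times (0.249 to 0.647), the 1 gene counted, with 0 higher, beside 3.49% and 7.38% of all genes. *Sp5* and *Nkd1* had too few UMIs to be counted there. *Lef1* was at 54.9 and 60.7 CPM, 1.10 times (0.883 to 1.38). *Dkk1* was at 120 CPM in WT and 231 in dCD, 1.93 times (1.69 to 2.20), and *Tcf7l1* at 43.6 and 74.3 CPM, 1.70 times (1.36 to 2.14). The fall of *Lef1* over whole libraries was therefore not seen at that size within either cluster, and *Dkk1*, which was 0.842 times over whole libraries, was above 1 in both.

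Apart from the small cluster 10, with 26 WT and 9 dCD cells, the remaining clusters were nearly all of 1 genotype. Genotype and cluster cannot be told apart in those. *Lef1* was at 168 CPM in the WT-only cluster 5 (374 cells, led by *Tbx4*, *Pitx1*, *Gal*, *Wnt2* and *Phlda2*). In the dCD cells of the 3 clusters that were mostly dCD, *Lef1* was at 11.8 CPM in cluster 2 (491 dCD cells, led by *Hba-x*, *Hbb-y*, *Hbb-bh1*, *Rhox9* and *Rhox6*), 63.6 in cluster 3 (458 dCD cells, with *Nkx2-5*, *Six2*, *Bcl11a* and *Sema3d* among its leading genes) and 4.87 in cluster 4 (450 dCD cells, naive pluripotency-like, led by *Fam25c*, *Gm13580*, *Ooep*, *Tcl1* and *Fgf4*). *Tcf7l1* was at 114, 75.1 and 90.7 CPM in the same cells, and at 74.0 CPM in the WT-only cluster 5, so its level in dCD cluster 3 was matched in WT cells. The low level of *Lef1* was found mainly in clusters 2 and 4.

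**Figure D5:**
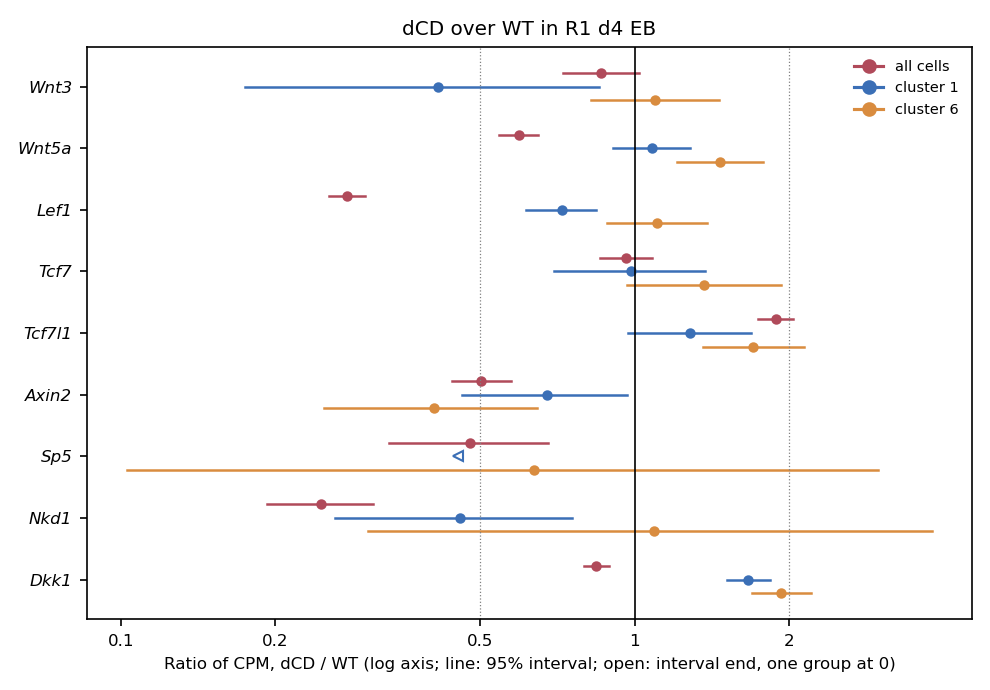
Ratio of CPM of dCD to WT R1 d4 EB for each gene (horizontal logarithmic axis) over all cells and within clusters 1 and 6, with exact 95% intervals that cover counting error only. *Lef1* lies at 0.276 over all cells and nearer to 1 within the clusters, and *Dkk1* lies above 1 within both clusters.

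In WT R1 EB, 2 clusters carried PGC markers, and both were chosen on all genes but the pathway's. Cluster 8 (99 WT cells) had 6 of the 7 PGC markers at least 2-fold higher but was led by *Lefty1*, *Igfbpl1*, *Fgf8*, *Ap3b2* and *A830018L16Rik*. Against the other WT cells, *Sp5* was 3.77-fold higher (2.18 to 6.24) and *Wnt3* 2.50-fold higher (1.76 to 3.48). *Dkk1* at 0.0995 times (0.0589 to 0.158), *Tcf7l1* at 0.433 (0.286 to 0.630), *Wnt5a* at 0.473 (0.339 to 0.643) and *Nkd1* at 0.478 (0.236 to 0.867) were lower, so that 2 genes were higher and 4 lower, beside 7.62% and 27.2% of all genes. *Axin2* was at 1.04 times (0.746 to 1.42).

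Cluster 7 (183 WT cells, led by *BC048679*, *Nanos3*, *Dppa3*, *Epp13* and *Gm46332*) passed the marker rule as naive pluripotency-like, with 6 of 7 naive markers. It was taken up after its leading genes were seen, as *Nanos3* and *Dppa3* are PGC markers. In this cluster 6 of the 9 genes were lower and 0 higher, beside 29.8% and 10.5% of all genes. *Wnt5a* was at 0.0448 times (0.0214 to 0.0827), *Wnt3* at 0.0627 (0.0128 to 0.185), *Dkk1* at 0.103 (0.0746 to 0.138), *Nkd1* at 0.123 (0.0489 to 0.255), *Lef1* at 0.206 (0.164 to 0.256) and *Sp5* at 0.460 (0.180 to 0.988). *Tcf7l1* was at 1.02 times (0.848 to 1.22). *Dkk1*, *Nkd1* and *Wnt5a* were thus below 0.5 times in both clusters with PGC markers, as in both sets of listed PGCLC of E14Tg2a. For *Wnt5a* in the d2 PGCLC the ratio was 0.492, and 0.513 with TMM scaling. *Wnt3* was high in one of the R1 clusters and low in the other. Low levels of *Dkk1*, *Nkd1* and *Wnt5a* were also found elsewhere, so they were not particular to these cells. The dCD cells of the naive pluripotency-like R1 cluster 4 held 1.06%, 7.53% and 1.03% of their dCD UMIs, with 30.5% of all UMIs. The endothelium-like cluster 4 of E14Tg2a d4 EB held 1.47%, 1.37% and 1.23% of them, with 12.5% of all UMIs.

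A list of 100 further pathway genes, 99 of them in the E14Tg2a table, was set beside the 9. From 2i to S+L ESC, 11 of the 53 with at least 20 UMIs rose and 4 fell, beside 13.9% and 3.78% of all genes, with the largest rises in *Id2* (5.30-fold), *Porcn* (3.26-fold) and *Myc* (2.72-fold) and the largest falls in *Fzd10* (0.375 times), *Cdx1* (0.385) and *Notum* (0.428). From 2i ESC to d1 EpiLC, 15 of 53 rose and 9 fell, beside 15.5% and 9.46% of all genes, led by *Fgf8* (23.9-fold), *Msx1* (at least 13.5-fold) and *Fzd2* (13.3-fold) and by *Cdx1* (0.0253 times), *Sfrp1* (0.0552) and *Nr5a2* (0.174). *Cdx1*, a caudal homeobox gene that responds to WNT, and *Notum*, which encodes a secreted enzyme that inactivates WNT ligands, were thus among the falls from 2i to S+L ESC. The further targets on the list did not fall as a group, since 2 of 8 with at least 20 UMIs rose and 1 fell in that comparison, and 7 of 10 rose and 3 fell to d1 EpiLC.

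From d1 to d2 EpiLC, 13 of 58 rose and 7 fell, beside the 14.8% and 8.72% of all genes. *Wls*, needed for ligand secretion, was 8.34-fold higher and *Notum* was at 0.0181 times. *Fgf8* (6.97-fold) and *Nkd2* (4.53-fold) also rose, and *Esrrb* (0.166 times) and *Tle4* (0.338) also fell. From d2 to d3 EpiLC, 4 of 58 rose and 6 fell, beside 7.04% and 5.88% of all genes. The rise with at least 50 UMIs was *Wnt4* (2.88-fold), and *Tnfrsf19* (0.321 times), *Fgf8* (0.344) and *Rspo1* (0.418) fell most. Of the 8 further targets on the list with at least 20 UMIs, 4 fell and 0 rose in this step. From d3 EpiLC to EpiSC, 25 of 66 rose, 2 fell and the others stayed within 2-fold, beside 12.0% higher and 9.5% lower of all genes. *Rspo3*, which potentiates WNT, rose 384-fold from 1 UMI, *T* 297-fold from 4 UMIs and the secreted inhibitor *Cer1* at least 232-fold from 0, and *Dvl1* fell to 0.482 times. Of the 10 further targets with at least 20 UMIs, 7 rose and 0 fell from d3 EpiLC to EpiSC.

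From d2 EpiLC to d2 EB, 33 of 72 rose and 10 fell, beside 18.0% and 13.2% of all genes. *Cdx2* rose from 1 UMI to 3422, *T* from 1 to 932 and *Msx2* from 0 to 2281, and the secreted inhibitors *Sfrp4* (0.0305 times) and *Sfrp2* (0.0912) and the Dishevelled partner *Nkd2* (0.149) fell most. From d2 to d4 EB, 17 of 76 rose and 18 fell, beside 13.7% and 5.75% of all genes. *Wnt2* rose from 1 UMI to 1171, *Ror1*, a receptor of WNT5A, 82.4-fold and the inhibitor *Frzb* 73.2-fold, while *T* (0.00327 times), *Fgf8* (0.00474) and *Cdx4* (at most 0.0161) fell most. The list as a whole thus moved in both directions in a step in which 5 of the 9 genes fell. Its further targets moved mostly to one side in both of these steps. From d2 EpiLC to d2 EB, 14 of the 17 targets with at least 20 UMIs rose and 1 fell. BMP4 and aggregation came with that step, and the part of WNT signaling in these rises was not tested. From d2 to d4 EB, 11 of 17 fell and 1 rose.

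In the listed d2 PGCLC, 8 of 65 list genes were higher and 21 lower than in the other cells, beside 6.86% and 13.7% of all genes. They were led by *Esrrb* (33.5-fold), *Nr5a2* (10.7-fold) and *Sp8* (7.39-fold), the last a relative of *Sp5*, and by *Dkk3* (0.0526 times), *Cdx4* (0.0571) and *Wnt6* (0.0799). At d4, 7 of 64 were higher and 36 lower, where 8.8% of all genes were higher and 33.6% lower, so that falls were common among all genes too. The list genes were led by *Esrrb* (60.2-fold), *Porcn* (29.7-fold) and *Tle4* (3.34-fold) and by *Wnt2* (0.0139 times), *Cdh2* (0.0172) and *Msx1* (0.0221). From WT to dCD, 11 of 83 were higher and 15 lower, beside 12.4% and 6.83% of all genes, led by *Cdx1* (6.57-fold), *Fzd5* (2.88-fold) and *Wnt7b* (2.72-fold) and by *Wnt2* (0.0196 times), *Cdx2* (0.156) and *Cdh2* (0.206). The WT EB thus held more of the ligand gene *Wnt2* and the dCD EB more of *Wnt7b*.

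Among 10914 genes with at least 200 UMIs, likeness was measured over the 8 E14Tg2a libraries as Pearson's r of log2(CPM + 1), a description over points that share 1 table and depth correction. *Sp5* was most like *Gsc* (r = 0.934), an organizer gene of the streak, then *Pga5* (0.918) and *Tmem138* (0.907). *Wnt5a* was most like *Hoxd8* (0.984), *Yipf2* (0.983) and *Atp2c1* (0.980), *Dkk1* like *Phc2* (0.990), *Rnf185* (0.989) and *Zfp691* (0.985), and *Wnt3* like *Itpripl1* (0.985), *Jrk* (0.969) and *Samhd1* (0.964). *Lef1* was most like *Dand5* (0.955), which encodes a secreted antagonist, *Zer1* (0.952) and *Braf* (0.926), and *Nkd1* like *Csnk1g3* (0.995), *Ltbr* (0.994) and *Fam171a1* (0.993). The nearest genes of *Axin2* were *Arsa* (0.959), *Uqcrb* (0.951) and *Plekhg3* (0.951), of *Tcf7* they were *Ttc9c* (0.970), *Zfp867* (0.958) and *Fgd2* (0.944), and of *Tcf7l1* they were *Sqle* (0.958), *B930036N10Rik* (0.947) and *Cdk1* (0.944). Among the 9 genes, *Dkk1* and *Wnt5a* were the most alike pair (0.91) and *Axin2* and *Lef1* were unrelated in this measure (-0.0051).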

How the data were processed

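Droplet-based single-cell RNA-seq gave 1 library for each of 10 groups. The authors deposited whole-number UMI counts per gene and cell. For E14Tg2a (10x 3′ kit) they counted with Cell Ranger on mm10 and, in aggregating the 8 libraries, brought them to equal mapped reads per cell. For R1 they removed cells with fewer than 2000 expressed genes, and its counting tool and gene annotation are not given in the sources used here. A library had 8757170 (2i ESC) to 22887974 UMIs (dCD d4 EB), and this depth and the single libraries limit the precision.

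The tables held 2782 and 3115 cells, with 0 columns left unused. E14Tg2a cells were given their stage by the barcode suffix, which the paper's supplement pairs with stages, and all 135 PGCLC barcodes listed there were found. Identifiers of E14Tg2a were matched to symbols of a GENCODE annotation of GRCm38, which named 27645 of them.

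The 9 genes, the pathway list and the marker lists were chosen with earlier results of these data known. Of the pathway list, the 3 largest rises and falls past 2-fold with at least 50 UMIs were named for each comparison, with genes at 0 ranked by their bound at 3 counts. For clusters the 5 leading genes were named, and for each of the 9 genes the 3 most alike. The split of EpiSC by *Dkk1* and R1 cluster 7 were chosen after values had been seen. Because no group had a second library, no p-value was computed, and ratios of CPM were read by size.

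Doublets, called with Scrublet in scanpy 1.11.5, were kept and made up 0.441% (2i ESC) to 7.61% (d2 EpiLC) of a library. Cells were thinned to 15374 (E14Tg2a) or 6831 UMIs (R1), leaving shallower cells out. EB cells were clustered by k-means (3 clusters for d2, 4 for d4) on 20 principal components of 2000 variable genes. R1 cells were clustered with Seurat 5.3.0 on 10 components at a resolution of 0.3. A cluster was named for the marker class with the highest median fold, if this was at least 2 and at least 3 markers reached it, and left unnamed where its leading genes went against that class. TMM factors came from edgeR 4.0.16 in R 4.3.3. Other steps used scipy 1.17.1, scikit-learn 1.9.0, pandas 2.3.3, numpy 2.4.6 and matplotlib 3.10.9 under Python 3.11.15. The computations were tested on simulated data. Alternatives changed the scaling, the minimum of UMIs, the fold, the pseudocount, doublets, the weight and depth of cells, the definition of PGCLC, the cells compared and the cluster resolution. The bulk and chromatin data of the study were not used here. Some leading genes of clusters are not reported here.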

Additional observations from a re-analysis of the deposited data

How the results depend on the processing

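Of 88 recomputed counts of genes past 2-fold, 78 stayed within 1.5 times their value, and 0 recomputed ratios of genes that had been counted changed direction under these alternatives. With no minimum of UMIs, 7 genes were counted from 2i ESC to d1 EpiLC, 7 from 2i to S+L ESC and 1 from d2 to d3 EpiLC. With a fold of 1.5, 1 gene was counted from d2 to d3 EpiLC and 6 from WT to dCD. With a fold of 3, the counts were 2 from 2i ESC to d1 EpiLC, 2 from 2i to S+L ESC, 3 from d2 to d4 EB, 2 in d2 PGCLC and 3 in d4 PGCLC. These counts move because the limits themselves move. Ratios near 2-fold changed sides. *Nkd1* was at 1.88-fold from 2i to S+L ESC and 1.87-fold from d3 EpiLC to EpiSC with a pseudocount of 1 CPM. In thinned cells, *Wnt3* in d4 PGCLC was at 0.723 times and *Sp5* from WT to dCD at 0.528 times, and *Wnt5a* from d2 to d3 EpiLC, with 2 UMIs in each, was at 2.18 times. *Axin2* was at 0.547 times with the k-means cluster in place of the listed d4 PGCLC, and at 0.479 times from WT to dCD in cells with at least 3000 genes. The causes were not tested. The choice to leave out clusters 7 and 8 of R1, and 2 checks of the EpiSC split by *T*, were added after the data had been seen. No replicate could be left out. No paired analysis was possible because each group held 1 library and replicate numbers mark no shared origin. A count of 0 allows a level of up to 3 counts, which is up to 0.343 CPM in whole E14Tg2a libraries and 2.84 CPM in the listed d4 PGCLC.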

Other observations

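The EpiSC that held *Dkk1* also differed from the rest in some endoderm and primitive streak genes. EpiSC were split, after the values had been seen, into 62 cells with a UMI of *Dkk1* and 311 without. *Sox17*, a factor of definitive endoderm, was at 135 CPM in cells with *Dkk1* and 1.48 CPM in the others, a ratio of 90.8. *Cer1* was at 211 against 7.12 CPM and *Gata6*, another endoderm factor, at 110 against 5.54 CPM. *Spink1* (24.3-fold), *Cfc1* (25.9-fold) and *Flt1* (11.6-fold) were also among the genes with the largest ratios, and *Foxa2*, which endoderm shares with the streak, was 2.82-fold higher. Of the other endoderm markers, *Cldn6* was 2.50-fold higher, *Trh* (1.04 times) and *Epcam* (0.961) stayed within 2-fold, and *Apoa1* and *Ttr* had fewer than 20 UMIs. Among streak markers, *Evx1* (6.30-fold), *Mixl1* (4.38-fold) and *Eomes* (3.84-fold) were higher too, while *T* (1.91) and *Fgf8* (1.56) stayed within 2-fold. The differences were not confined to these 2 lists. Of the markers of other cell types, *Kit* (7.63-fold), *Prdm1* (5.16-fold), *Ascl2* (3.33-fold) and *Tbx3* (2.45-fold) were higher and *Klf2* was lower (0.426 times). The others with at least 20 UMIs stayed within 2-fold, among them *Tfap2c* (1.12) and *Nanos3* (0.987).

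Among the other 8 WNT genes, *Sp5* was at 129 CPM in cells with *Dkk1* against 39.5 CPM, 3.27-fold higher (2.82 to 3.79), and *Nkd1* was 2.53-fold higher (1.80 to 3.54). *Lef1* was at 11.7 against 30.3 CPM, 0.387 times (0.258 to 0.560). *Wnt5a*, which was higher in cells with *T*, was not higher in cells with *Dkk1*, at 0.628 times (0.320 to 1.14). A UMI of *T* was found in 62.5% (40.6% to 81.2%, exact binomial) of the 24 cells with at least 10 UMIs of *Dkk1*, at a median depth of 34031 UMIs, and in 36.7% (31.3% to 42.3%) of the cells without *Dkk1*, at 30950. The 18 cells with 3 to 9 UMIs of *Dkk1*, of which 77.8% (52.4% to 93.6%) had *T*, were deeper, with a median of 51213 UMIs. These are values of 1 library split by a gene of interest, and they carry no test.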
